A study of Arabidopsis thaliana with 6 samples.

Results

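The Arabidopsis thaliana genome encodes 10 Argonaute proteins, AGO1 to AGO10, and their transcripts were followed here in seedlings of a mutant of the phosphatase-like gene CPL2. The 10 members were taken by their locus identifiers, 10 of 38192 genes in the deposited count table. The family was chosen by measured values of these same libraries, because AGO5 had been noted for a rise from near zero, so AGO5 is described without a test and the other 9 genes, which entered by family name, are tested. RNA was sequenced from the aerial parts of 9-day-old seedlings of cpl2-2, labelled a CPL2 knockout, and of WT, accession Col. Both genotypes grew at 23 ± 2 °C with 16 h of light and 8 h of dark, with no other treatment named. There were 3 libraries per genotype, which the design text calls biological replicates. The mutant is represented by a single allele, and the number of seedlings per library is not stated in the labels.

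Argonautes are the effector proteins of RNA silencing. Each binds a small RNA, a microRNA (miRNA) or a small interfering RNA (siRNA), and uses it as a guide to complementary RNA, which is then cut, held from translation or, at a chromosomal locus, marked by DNA methylation. Plant Argonautes fall into a clade of AGO1, AGO5 and AGO10, a clade of AGO2, AGO3 and AGO7, and a clade of AGO4, AGO6, AGO8 and AGO9. AGO1 and AGO4 act in most tissues, whereas AGO5 and AGO9 are best known from ovules and gametes.

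Library totals were 18299294 to 20653008 counts in cpl2-2 and 20756428 to 21098728 counts in WT, so that 10 counts in the median library correspond to 0.483 counts per 1000000 (CPM). CPL2 (AT5G01270) had 198, 229 and 222 counts in cpl2-2 libraries, against 391, 378 and 393 counts in WT libraries, with no overlap. Where cpl2-2 is disrupted was not known here, and counts over the whole gene leave unseen whether the remaining RNA is complete. Leaf marker genes RBCS1A, LHCB1.3 and LHCA1 together held 31072 to 32487 CPM in cpl2-2 and 40404 to 41672 CPM in WT, and the 6 root markers together held 1.12 to 2.28 CPM, with RHD6, PLT1 and EXPA7 at 0 counts and CASP1 and WOX5 detected in all libraries. Of 19302 genes tested with edgeR's quasi-likelihood test, 27.3% were called at an adjusted p under 0.05, 14.1% as higher and 13.3% as lower in cpl2-2, and 3.07% were called and at least 2-fold higher. All levels below are CPM scaled with TMM factors, and fold changes are log2 of cpl2-2 over WT with the standard error (SE) and the adjusted p of that test.

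Of the 8 other members that could be tested, AGO7 and AGO9 were called higher in cpl2-2 and 0 were called lower. Over all tested genes, 14.1% were called higher, and 3.07% were called with a rise of at least 2-fold, as both of these were. AGO9 passed the filter on low counts only through cpl2-2, the genotype in which it is high, so nothing about the family is read from this count. AGO5 differed most, by 5.71 on the log2 scale, and is the gene for which the family was singled out. AGO1, AGO2, AGO3, AGO4, AGO6 and AGO10 were not called by edgeR, and AGO2 was the 1 of these 6 with an unadjusted p under 0.05. AGO8 had too few counts to be tested. Of the 9 members that passed the filter on low counts, AGO5 and AGO9 reached its level of 10 counts per median library in all cpl2-2 libraries and in 0 WT libraries, so both entered the fit through the mutant alone.

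**Figure D1:**
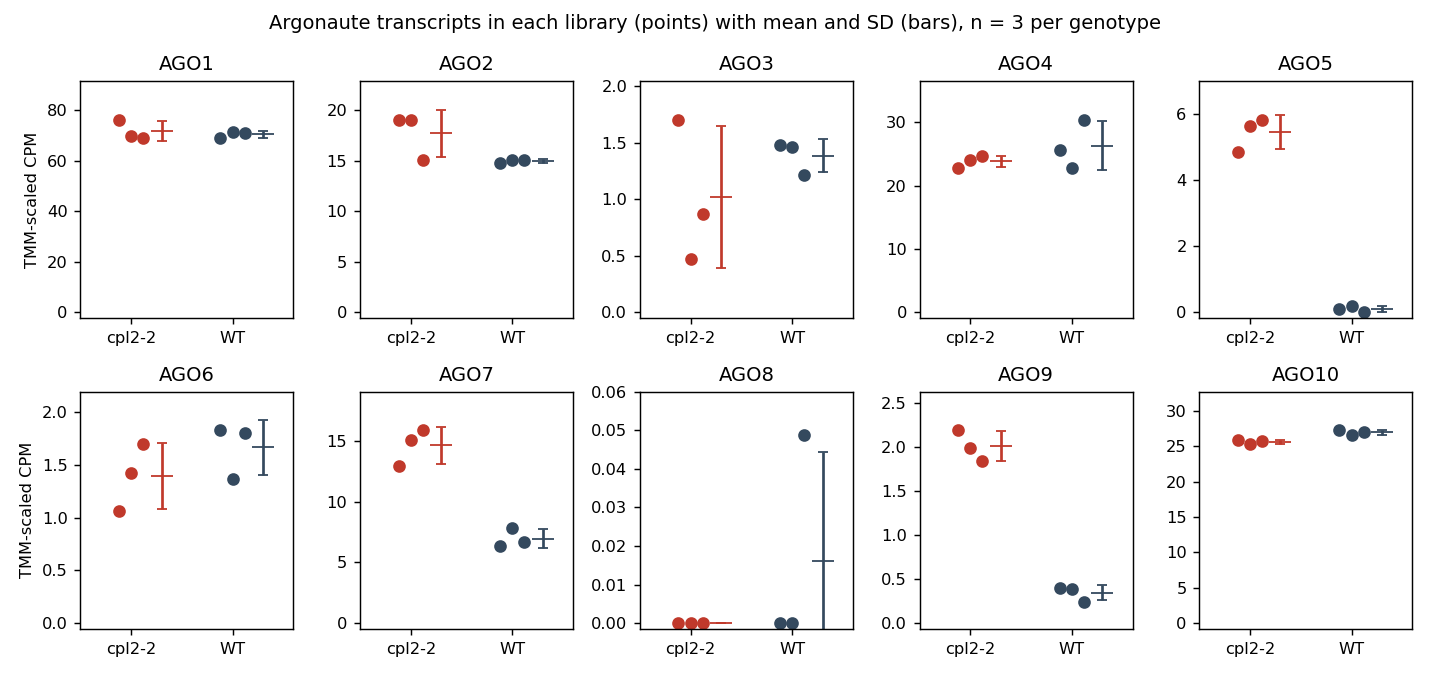
TMM-scaled CPM of each Argonaute gene by library (points), with the mean and SD of 3 libraries (horizontal line and bars), cpl2-2 in red at the left and WT in dark blue at the right; each panel has its own axis from 0. AGO5, AGO7 and AGO9 lie higher in all 3 cpl2-2 libraries than in all 3 WT libraries, AGO10 lies slightly lower without being called, and the remaining members overlap.

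AGO5 (AT2G27880, chr2:11871378-11876989, plus strand) belongs to the AGO1 clade and is known for its part in the female gametophyte and in defence against viruses. It had 91, 119 and 120 counts in cpl2-2 libraries, against 2, 4 and 0 counts in WT libraries. These are 4.85, 5.64 and 5.82 CPM in cpl2-2 and 0.0988, 0.195 and 0 CPM in WT. Every cpl2-2 library thus held far more AGO5 reads than any WT library, and the WT values are at a level where 1 read decides. The sums of 330 counts in cpl2-2 and 6 counts in WT give a ratio of 55.7 after scaling, with an exact 95% interval of 25.3 to 153 that covers counting error only. The fitted log2 fold change of 5.71 (SE 0.40) became 6.62 without WT replicate 2, which holds 4 of the 6 WT counts. AGO5 was chosen for this rise, so neither the SE nor the interval is read as a test of it. In bulk tissue, fewer cells that express a gene and less of its RNA per cell cannot be told apart, for AGO5 and for every gene below.

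AGO1 (AT1G48410, chr1:17885633-17892632, minus strand) is the main partner of miRNAs and the most abundant member. It had 1430, 1469 and 1424 counts in cpl2-2, against 1393, 1467 and 1460 counts in WT, and the genotypes overlapped. The mean level was 71.6 ± 3.99 CPM in cpl2-2 and 70.5 ± 1.45 CPM in WT (SD, n = 3 each), a log2 fold change of 0.02 (SE 0.05, adjusted p = 0.798 by edgeR). Its 95% interval, -0.08 to 0.13, bounds the difference closely. AGO1 is itself regulated by a miRNA that AGO1 binds, miR168. The miRNA and its site in the AGO1 coding sequence are shown because they mark AGO1 apart from AGO5 and AGO10. Both are from the RefSeq annotation of TAIR10.1 and read 5′ to 3′. In the miRNA, capitals mark the seed (bases 2 to 8). In the site, they mark positions that differ from the perfect complement of the miRNA, G:U pairs included.
ath-miR168a-5p (chr4:10578652-10578672, plus strand): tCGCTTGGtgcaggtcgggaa
AGO1 site (chr1:17891529-17891549, minus strand): ttcccgaGctgcaTcaagcTa
The site differs from the perfect complement at 3 positions, 1 of them a G:U pair. AGO1 is the 1 gene of 31346 with a match this close. In AGO5 and AGO10 the best match to miR168 differs at 8 positions, which 31.3% of genes reach.

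AGO10 (AT5G43810, chr5:17610744-17616907, plus strand) sequesters miR165 and miR166 and maintains the shoot meristem. It had 485, 535 and 530 counts in cpl2-2, against 552, 546 and 556 counts in WT. Its levels of 25.4 to 25.9 CPM in cpl2-2 and 26.6 to 27.3 CPM in WT do not overlap, but the difference is small (log2 fold change -0.07, SE 0.08, adjusted p = 0.519 by edgeR). The CPM values of the genotypes were apart for AGO7, AGO9 and AGO10 among the 8 other members tested, and for 39% of all tested genes. Within its clade AGO5 is thus the member with a large difference, while the 95% intervals of AGO1 and AGO10 (-0.23 to 0.08) allow at most small ones; that contrast follows from how AGO5 was chosen.

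AGO7 (AT1G69440, chr1:26101407-26105328, minus strand) binds miR390 and starts the production of trans-acting siRNAs from the TAS3 transcript, which restrain ARF2, ARF3 and ARF4 and time the change from juvenile to adult leaves. It had 243, 317 and 327 counts in cpl2-2 libraries, against 129, 160 and 137 counts in WT libraries. The lowest cpl2-2 library, at 13.0 CPM, lay well above the highest WT library, at 7.80 CPM. The mean was 14.6 ± 1.49 CPM in cpl2-2 and 6.95 ± 0.752 CPM in WT (SD, n = 3 each), a rise of 2.10-fold (log2 fold change 1.07, SE 0.12, adjusted p = 1.1e-09 by edgeR). The 95% interval of the log2 fold change was 0.82 to 1.32, and AGO7 was called under all 12 alternatives tried. It is the member with the largest number of reads behind a called difference.

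AGO2 (AT1G31280, chr1:11181504-11185396, plus strand), an antiviral Argonaute, and AGO3 (AT1G31290, chr1:11188120-11192585, plus strand), of which less is known, are neighbours on chromosome 1 with 80.9% identical coding sequences. AGO2 had 358, 403 and 311 counts in cpl2-2, against 300, 310 and 310 counts in WT. The CPM of cpl2-2 replicate 3, 15.1, lay within the WT range of 14.8 to 15.1, while the other two cpl2-2 libraries stood at 19.1. The log2 fold change of 0.24 (SE 0.10) missed the threshold (adjusted p = 0.0706 by edgeR), and passed it when library totals replaced TMM factors (0.31, adjusted p = 0.0165) and without cpl2-2 replicate 3 (0.35, adjusted p = 0.0104). AGO3 had 32, 10 and 18 counts in cpl2-2, against 30, 30 and 25 counts in WT, which overlap (log2 fold change -0.46, SE 0.39, adjusted p = 0.412 by edgeR). With so few counts the 95% interval of AGO3, -1.25 to 0.32, does not bound its difference tightly, and the value was -1.04 without cpl2-2 replicate 1 and -0.12 without cpl2-2 replicate 2. For each gene, the annotated transcript with the longest coding sequence was compared. The longest stretch that those of AGO2 and AGO3 share without a mismatch is 42 bases. How reads that match both were counted is not stated in the labels.

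AGO2 and AGO3 carry sites of miR403 in their 3′ UTRs, which AGO7 does not share. The miRNA and both sites are shown in the same way, since they are the known post-transcriptional control of this pair.
ath-miR403-3p (chr2:19415154-19415174, plus strand): tTAGATTCacgcacaaactcg
AGO2 site (chr1:11185223-11185243, plus strand): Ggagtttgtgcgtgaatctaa
AGO3 site (chr1:11192399-11192419, plus strand): GATgtttgtgcgtgaatctaa
AGO2 differs from the perfect complement at 1 position and AGO3 at 3, and these are the 2 genes of 31346 with at most 3. The best match in AGO7 differs at 7, which 14.8% of genes reach. Mature miR168, miR403, miR390, miR165 and miR166 have 23 entries of 20 to 22 bases in the table, of which 10 had any count and none more than 10 in a library; libraries of this kind do not measure mature miRNAs, so their levels are not reported.

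AGO9 (AT5G21150, chr5:7192239-7198381, plus strand) is known from ovules, where it limits the number of cells that become gamete precursors. It had 41, 42 and 38 counts in cpl2-2 libraries, against 8, 8 and 5 counts in WT libraries. The genotypes are far apart, 1.84 to 2.19 CPM in cpl2-2 and 0.243 to 0.395 CPM in WT. The log2 fold change was 2.53 (SE 0.41, 95% interval 1.69 to 3.36, adjusted p = 3.0e-06 by edgeR), and the ratio of the sums, 121 counts in cpl2-2 and 21 counts in WT, was 5.84 with an exact counting interval of 3.65 to 9.78. AGO9 passed the filter only through cpl2-2, so the fit of all genes without a filter is given beside it. That fit gave a log2 fold change of 2.52 (SE 0.43, adjusted p = 6.6e-08 by edgeR). It uses the same counts, so its smaller adjusted p is not further support. AGO9 was called under all 12 alternatives, with a log2 fold change between 2.33 and 2.64.

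AGO4 (AT2G27040, chr2:11536502-11542391, minus strand) and AGO6 (AT2G32940, chr2:13971916-13977521, minus strand) bind siRNAs that direct DNA methylation to transposons and repeats. AGO4 had 429, 506 and 509 counts in cpl2-2, against 519, 469 and 625 counts in WT, and the genotypes overlapped (log2 fold change -0.14, SE 0.09, adjusted p = 0.236 by edgeR). AGO6 had 20, 30 and 35 counts in cpl2-2, against 37, 28 and 37 counts in WT, which overlap as well (log2 fold change -0.25, SE 0.33, adjusted p = 0.627 by edgeR). The 95% interval of AGO4 was -0.31 to 0.03 and that of AGO6 -0.90 to 0.41. With a library left out, AGO4 ranged from -0.24 (without WT replicate 2, adjusted p = 0.0533 by edgeR) to -0.02 (without WT replicate 3), and AGO6 from -0.41 (without cpl2-2 replicate 3) to -0.09 (without cpl2-2 replicate 1). AGO8 (AT5G21030, chr5:7139817-7144272, minus strand), often regarded as a pseudogene, had 0 counts in all cpl2-2 libraries and 1 count in WT replicate 3. Taken singly, a library with 0 counts allows an expected count of up to 3, and the cpl2-2 libraries together allow less per library. The coding sequences of AGO8 and AGO9 are 78.3% identical. The longest exact stretch shared by their annotated transcripts with the longest coding sequence is 41 bases. Of the 10 members, 0 overlap another gene of the table.

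**Figure D2:**
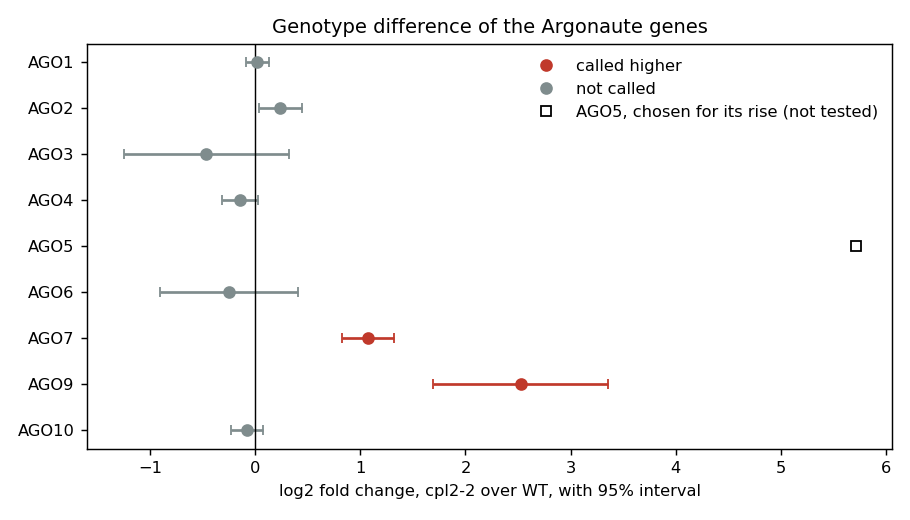
Log2 fold change of cpl2-2 over WT for the 9 Argonaute genes that passed the filter on low counts, with 95% intervals of the fit (bars; none is drawn for AGO5, which was chosen for its rise). AGO7 at 1.07 and AGO9 at 2.53 are called higher, the intervals of AGO3 and AGO6 are wide, and those of AGO1 and AGO10 lie close to 0.

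Levels of different genes were compared as CPM per kilobase of exon. In cpl2-2 the order was AGO1 (19.7 ± 1.1), AGO4 (7.32 ± 0.280), AGO10 (6.06 ± 0.061), AGO2 (4.93 ± 0.643), AGO7 (4.24 ± 0.434), AGO5 (1.61 ± 0.152), AGO9 (0.652 ± 0.056), AGO6 (0.447 ± 0.101), AGO3 (0.253 ± 0.156) and AGO8 at 0 (mean ± SD, n = 3). Neighbours in this order whose libraries overlap were AGO2 with AGO7 and AGO6 with AGO3. In WT the order was AGO1 (19.4 ± 0.399), AGO4 (8.08 ± 1.18), AGO10 (6.38 ± 0.079), AGO2 (4.17 ± 0.046), AGO7 (2.02 ± 0.219), AGO6 (0.533 ± 0.083), AGO3 (0.345 ± 0.037), AGO9 (0.111 ± 0.028), AGO5 (0.029 ± 0.029) and AGO8 (0.0061 ± 0.011), with overlap between AGO5 and AGO8. The first 5 places were the same in both genotypes. AGO5 stood at place 6 in cpl2-2 and place 9 in WT, above AGO6 in the mutant and near the detection limit in WT. Per kilobase of coding sequence, AGO10 and AGO4 exchange places in cpl2-2, so their order there depends on the length used.

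The 10 genes together reached 46.1, 45.0 and 44.5 CPM per kilobase in the cpl2-2 libraries, against 40.3, 40.4 and 42.4 in the WT libraries. The totals do not overlap, and without AGO5 the ranges were 42.8 to 44.6 in cpl2-2 and 40.3 to 42.4 in WT. The CPM values of the genotypes were apart for 39% of all tested genes. AGO5 was chosen for its rise and AGO9 passed the filter through cpl2-2 alone, so nothing is read from the gap in totals. The mean total was higher by 4.17 in cpl2-2, to which AGO7 contributed 2.23, AGO5 1.58, AGO2 0.763, AGO9 0.541 and AGO1 0.321. AGO2 and AGO1 were not called, and their genotypes overlapped. AGO4 was lower by 0.757 in cpl2-2, within the spread of its WT libraries. AGO10 differed by -0.318, and AGO3, AGO6 and AGO8 were lower by less. AGO1 made up 43.5 ± 1.69% of the family total in cpl2-2 and 47.2 ± 1.3% in WT. AGO7 made up 9.40 ± 1.12% in cpl2-2 and 4.92 ± 0.592% in WT, and AGO5 made up 3.56 ± 0.395% in cpl2-2 and 0.072 ± 0.071% in WT (SD, n = 3 each).

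**Figure D3:**
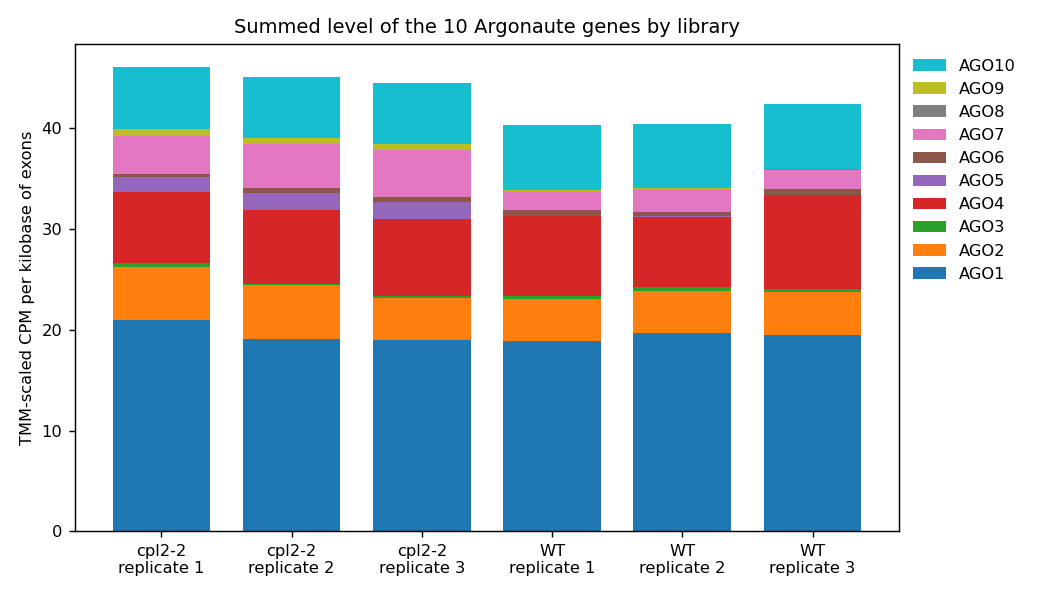
Level of each Argonaute gene stacked by library, in TMM-scaled CPM per kilobase of exon, the 3 cpl2-2 libraries at the left and the 3 WT libraries at the right. AGO1 fills close to the same height in each bar, and the cpl2-2 bars, at 44.5 to 46.1, are taller than the WT bars, at 40.3 to 42.4, with wider bands for AGO7 and AGO5.

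The promoters of AGO5 and AGO7, which were high in cpl2-2, are shown so that they can be compared. The promoter of AGO9, also higher in cpl2-2, was not searched. Each runs from 250 bases before to 50 bases after the annotated start (RefSeq annotation of TAIR10.1, same coordinates as the deposited table), 5′ to 3′ on the strand of the gene. Capitals mark matches on either strand to the TATA box, searched as the letters TATAAA, the E2F site, searched as TTTCCCGC, the W-box core of WRKY factors, searched as TTGAC, and the G-box, searched as CACGTG. No matches overlap in these windows.
AGO5 (chr2:11871128-11871427, plus strand): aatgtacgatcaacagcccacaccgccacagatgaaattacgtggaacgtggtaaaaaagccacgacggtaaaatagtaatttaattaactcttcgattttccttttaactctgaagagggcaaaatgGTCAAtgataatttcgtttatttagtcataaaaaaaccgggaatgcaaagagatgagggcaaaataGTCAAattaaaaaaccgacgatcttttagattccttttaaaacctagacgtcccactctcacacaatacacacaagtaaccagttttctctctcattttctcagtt
AGO7 (chr1:26105279-26105578, minus strand): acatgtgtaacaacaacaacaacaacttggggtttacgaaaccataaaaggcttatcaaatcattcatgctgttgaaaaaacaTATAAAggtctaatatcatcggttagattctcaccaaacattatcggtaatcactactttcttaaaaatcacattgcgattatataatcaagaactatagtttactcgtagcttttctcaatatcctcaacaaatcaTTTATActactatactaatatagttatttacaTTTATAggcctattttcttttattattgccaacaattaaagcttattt
In the AGO5 promoter the W-box core occurs 2 times, both on the opposite strand, with the left end of the match at -122 and -56 relative to the annotated start (0), and the TATA box does not occur in this window. The AGO7 window holds the TATA box 3 times, at -167 on the strand of the gene and at -30 and 2 on the opposite strand. It does not hold the W-box core. Neither window holds the E2F site or the G-box. The TATA box is found in 52.1% and the W-box core in 50.5% of 27443 promoters of this length, while the G-box is found in 7.68% and the E2F site in 0.798%. No motif of these is in both windows. The number of annotated exons differs too, with 20 in AGO5 and 3 in AGO7.

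The tested genes around AGO5 differed far less than AGO5, a contrast that follows from how AGO5 was chosen. Of the 5 annotated genes on each side, 7 had a count and 5 were tested. HDT4 (AT2G27840), a histone deacetylase gene, fell to 38.8 CPM in cpl2-2, against 57.6 CPM in WT (log2 fold change -0.57, adjusted p = 8.2e-10 by edgeR). SCPL51 (AT2G27920), a serine carboxypeptidase-like gene that overlaps AT2G27900 on the opposite strand, rose to 42.3 CPM in cpl2-2, against 33.4 CPM in WT (0.34, adjusted p = 5.0e-05). The nearest gene before AGO5, the transposable element gene AT2G27870, had 2, 0 and 0 counts in cpl2-2 and 0 counts in WT. The nearest after it, AT2G27900, was not called (0.14, adjusted p = 0.188).

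The genes whose log2 CPM over the 6 libraries lay nearest to AGO5, by the root mean square difference, were AT4G33930 (0.470), AT5G59230 (0.784), AT1G04660 (0.840), AT5G49200 (0.968) and AT5G14470 (1.008). AT4G33930, described in the deposited table as a cupredoxin family protein, had 74, 100 and 110 counts in cpl2-2, against 1, 1 and 0 counts in WT. AT5G59230, described as related to transcription factors, had 57, 71 and 70 counts in cpl2-2, against 1, 1 and 2 counts in WT, and overlaps AT5G59240 on the opposite strand. AT1G04660 (glycine-rich protein), AT5G49200 (the WD-40 repeat protein ZFWD4) and AT5G14470 (GHMP kinase family) had 37 to 69 counts per library in cpl2-2, against 1 to 8 counts in WT. All 5 were selected for this likeness and share the libraries and the contrast with AGO5, so no test is given.

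Genes that make, amplify or use the small RNAs of Argonautes were gathered in 6 lists from their known roles. All 54 genes kept were tested, and 5 (9.26%) were called higher and 6 (11.1%) lower in cpl2-2, beside 14.1% and 13.3% of all tested genes. The median log2 fold change was -0.02 in the lists and -0.0017 over all genes tested. Both shares lie below those of all tested genes. Each list is short, so the counts per list are a description. When library totals replaced TMM factors 9 were called higher, and without WT replicate 2 the genes called lower numbered 2.

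Of 14 genes of small RNA processing, 0 were called by edgeR, beside 27.3% of all tested genes, and the list median was -0.05. DCL1, the Dicer of miRNAs, had 16.9 ± 1.04 CPM in cpl2-2 and 17.6 ± 1.78 CPM in WT (SD, n = 3 each; log2 fold change -0.06, adjusted p = 0.698 by edgeR). The genes nearest to the threshold lay on both sides of 0, with DCL2, a Dicer for viral siRNAs, at -0.40 (adjusted p = 0.0512), the cap-binding gene ABH1 at 0.19 (adjusted p = 0.0650), DDL at -0.30 (adjusted p = 0.0859) and the Dicer partner HYL1 at -0.33 (adjusted p = 0.0970). Among the 6 genes of siRNA amplification, RDR1, an RNA-dependent RNA polymerase of antiviral defence, rose to 16.3 ± 0.267 CPM in cpl2-2, against 10.4 ± 0.745 CPM in WT (SD, n = 3 each; 0.65, SE 0.11, adjusted p = 3.2e-06 by edgeR). RDR1 overlaps a gene on the opposite strand, and whether reads were counted by strand is not stated in the labels. RDR6, which works downstream of AGO7, was not called (-0.08, adjusted p = 0.497), nor was its partner SGS3 (0.06, adjusted p = 0.781), and the list median was 0.12.

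Among 14 genes of RNA polymerases IV and V and of RNA-directed DNA methylation, the pathway of AGO4, AGO6 and AGO9, 1 was called. The share over all tested genes was 27.3%. SUVH9, which recruits polymerase V to methylated DNA, reached 38.6 ± 1.43 CPM in cpl2-2 and 34.0 ± 1.94 CPM in WT (SD, n = 3 each; log2 fold change 0.18, adjusted p = 0.0382 by edgeR), a call lost in 6 of the 12 alternatives. The polymerase subunits NRPD1 (0.32, adjusted p = 0.176) and NRPE1 (-0.16, adjusted p = 0.486) and the methyltransferase DRM2 (0.10, adjusted p = 0.585) were not called, and the median was 0.04. Of 7 Argonaute cofactors and turnover genes, 3 rose and 0 fell, with a median of 0.26. Over all tested genes, 14.1% were called higher and 13.3% lower. FBW2, an F-box protein that promotes the breakdown of AGO1, was at 43.1 ± 2.60 CPM in cpl2-2 and 36.1 ± 1.86 CPM in WT (SD, n = 3 each; 0.26, adjusted p = 0.00252 by edgeR). TRN1, an importin needed for loading miRNAs onto AGO1, had a log2 fold change of 0.30 (adjusted p = 0.000198) and HESO1, which adds uridines to unmethylated small RNAs, one of 0.36 (adjusted p = 0.00873). HESO1 overlaps a gene on the opposite strand and lost its call without WT replicate 2 (adjusted p = 0.0896).

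TAS precursors are the transcripts from which trans-acting siRNAs are cut. Of 5 TAS precursors, 3 fell and 0 rose, with a list median of -0.31, beside 13.3% of all tested genes called lower and 14.1% higher. TAS2 fell to 11.5 ± 0.512 CPM in cpl2-2, against 19.1 ± 3.65 CPM in WT (SD, n = 3 each; log2 fold change -0.73, SE 0.11, adjusted p = 7.8e-07 by edgeR). TAS1A (-0.53, adjusted p = 9.1e-06) and TAS1C (-0.31, adjusted p = 0.00494) fell too, although TAS1C overlaps a gene on the opposite strand and lost its call without WT replicate 2 (adjusted p = 0.0730). TAS1 and TAS2 depend on AGO1 and miR173, and TAS3 on AGO7. TAS3, the transcript that AGO7 cuts with miR390, had 346, 370 and 361 counts in cpl2-2, against 326, 322 and 328 counts in WT, and was not called (0.16, adjusted p = 0.213).

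Of the 8 targets, 3 fell, 0 rose and 5 were not called, with a list median of -0.20. The shares of all tested genes were 13.3% lower and 14.1% higher. The targets of TAS3 siRNAs were not called, with log2 fold changes of 0.04 for ARF2 (adjusted p = 0.480), -0.12 for ARF3 (adjusted p = 0.237) and -0.16 for ARF4 (adjusted p = 0.144 by edgeR). Of the class III HD-ZIP genes, which miR165 and miR166 repress and which pattern leaves and meristems, PHB (-0.30, adjusted p = 0.0167), PHV (-0.44, adjusted p = 0.00410) and CNA (-0.24, adjusted p = 0.0471) fell. PHV was at 9.57 ± 0.180 CPM in cpl2-2 and 13.0 ± 2.02 CPM in WT (SD, n = 3 each). ATHB8 (-0.28, adjusted p = 0.0589) and REV (-0.15, adjusted p = 0.283) were not called. Without WT replicate 2, PHB, PHV and CNA all lost their calls (adjusted p = 0.0749, 0.0794 and 0.191 in that order). PHB was lost in 4 and CNA in 8 of the 12 alternatives. When library totals replaced TMM factors, 1 target was called higher and 1 lower.

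**Figure D4:**
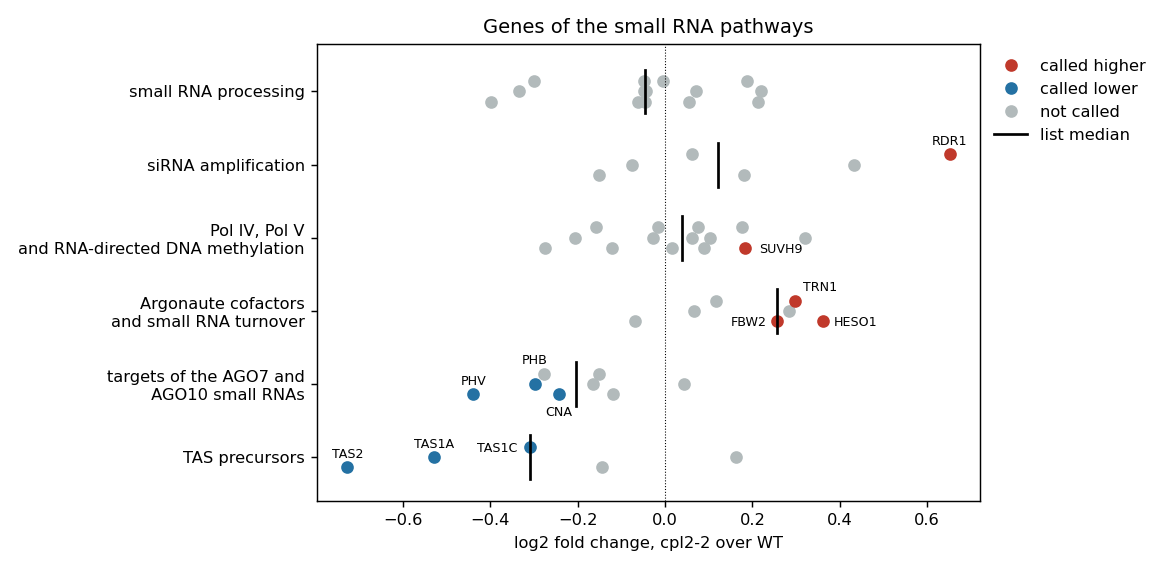
Log2 fold change of cpl2-2 over WT for 54 genes of the small RNA pathways (points) in 6 lists, with the list medians (vertical bars); named genes are those called, red if higher and blue if lower. Calls lie on the right for RDR1, SUVH9 and the cofactors, and on the left for the HD-ZIP targets and the TAS1 and TAS2 precursors, while all small RNA processing genes are grey.

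AGO5 and AGO9 are known from ovules and gametes, and AGO10 from the shoot apex, so marker levels of such tissues are given beside them. Of 8 shoot meristem markers, 5 were tested and 1 was called, beside 27.3% of all tested genes. STM, which keeps meristem cells undifferentiated, rose to 7.37 ± 0.817 CPM in cpl2-2, against 3.92 ± 0.562 CPM in WT (SD, n = 3 each; log2 fold change 0.91, adjusted p = 4.1e-05 by edgeR), while the summed level of the list was 48.2 to 50.6 CPM in cpl2-2 and 46.6 to 51.2 CPM in WT. WUS and CLV3, which define the stem cell niche, had at most 2 counts in any library. Of 6 meiocyte markers, 3 were tested and 1 was called, again beside 27.3% of all tested genes. With so few genes tested, nothing about a tissue is read from either count. The meiocyte list summed to 47.1 to 51.4 CPM in cpl2-2 and 15.2 to 17.3 CPM in WT. Most of that gap was ASY1, a protein of the meiotic chromosome axis, which rose to 32.1 ± 1.85 CPM in cpl2-2, against 1.16 ± 0.513 CPM in WT (SD, n = 3 each; 4.78, SE 0.15, adjusted p = 1.4e-29) and overlaps a gene on the opposite strand. The meiotic genes DMC1 (0.23, adjusted p = 0.106) and SDS (-0.16, adjusted p = 0.810) were not called.

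Markers of the gametes and the embryo were close to 0 in both genotypes. The 6 pollen and male germline markers summed to 0.097 to 0.586 CPM in cpl2-2 and 0.0988 to 0.585 CPM in WT, and the 5 female gametophyte markers to 0.339 to 1.18 CPM in cpl2-2 and 0.195 to 0.438 CPM in WT. The egg cell genes EC1.1 and EC1.2 and the gene WOX8 had 0 counts in every library, and WOX2 held 17, 24 and 7 counts in cpl2-2, against 5, 4 and 9 counts in WT. The 6 seed and embryo markers summed to 0.267 to 1.21 CPM in cpl2-2 and 0.0975 to 0.487 CPM in WT, with LEC1 at 0. The 6 root markers summed to 1.71 to 2.28 CPM in cpl2-2 and 1.12 to 1.73 CPM in WT, where CASP1 was called higher (1.25, adjusted p = 0.0217 by edgeR) and WOX5 was not (-0.14, adjusted p = 0.862). CASP1 had 21, 23 and 34 counts in cpl2-2, against 9, 9 and 15 counts in WT, and overlaps a gene on the opposite strand. It passed the filter on low counts only through cpl2-2, so nothing is read from its call. The part of these marker differences, and of the lower leaf markers, in the Argonaute values was not tested.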

How the data were processed

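Total RNA of 3 cpl2-2 and 3 WT samples was made into libraries with a kit that keeps the strand, per the labels. The authors deposited 1 table of raw whole-number read counts per gene and library, and its unit was read from the deposited values. The submitters' processing notes name HISAT2 2.0.5 and the build TAIR10. The counting program, its strand setting and the treatment of reads with several matches are not stated there or in the labels. Overlaps with a gene on the opposite strand are not given for every gene named, and DCL1, REV and LHCB1.3 are among those that have one. Symbols came from the RefSeq gene table of TAIR10.1, in which 37566 of 37570 nuclear genes shared with the deposited table have the same coordinates, so that sequences could be read from that assembly.

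Of 38192 genes, 25558 had a count and 19302 passed edgeR's filterByExpr. TMM scaling and a quasi-likelihood fit in edgeR 4.0.16 (under R 4.3.3), with genotype as the single term, gave p-values that were adjusted by Benjamini-Hochberg over all tested genes; calls are genes with an adjusted p under 0.05. Alternatives were library totals, DESeq2 1.42.0, limma-voom (limma 3.58.1), no or a stricter filter, a replicate block, coding length and each library left out. Ratios of summed counts carry exact (Clopper-Pearson) 95% intervals, which cover counting error only. The members, the gene lists and the tests were chosen with earlier results of these data known. Genes named are the members, up to 4 called genes per pathway list, any stated as not called, the 5 nearest profiles to AGO5, the called genes beside AGO5, the markers and CPL2. Of 57 pathway genes written, 3 (CLSY2, CLSY3 and CLSY4) were left out because the gene table does not pair those names with the loci. Sites of miRNAs were sought in annotated transcripts without gaps, with G:U pairs counted as differences from the perfect complement.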

Additional observations from a re-analysis of the deposited data

How the results depend on the processing

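AGO7 (log2 fold change 1.010 to 1.162) and AGO9 (2.33 to 2.64) kept their calls under all 12 alternatives, and 0 other members were called lower under any. AGO9 met the filter on low counts through cpl2-2 alone, so its calls in the fits with a filter carry that limit. AGO2 was called with library totals (0.31) and without cpl2-2 replicate 3 (0.35), which makes 3 members called higher. AGO1, at 0.02, ranged from -0.024 to 0.047 with a library left out and changed sign without cpl2-2 replicate 1 (adjusted p = 0.825 by edgeR; 0.210 to 0.985 over all settings). AGO5 ranged from 5.15 to 6.62. Pathway genes called higher, 5 by TMM, numbered 9 with library totals, which shift the median of all genes by 0.068 on the log2 scale, and 4 to 6 with a library left out. Those called lower, 6 by TMM, numbered 2 to 7 with a library left out, lowest without WT replicate 2. With coding length, 2 members changed places in the order of levels in cpl2-2. Deviations of same-numbered samples correlated at -0.012, 0.010 and 0.013, so no shared deviation was seen. These values cannot tell whether same-numbered samples were grown or prepared together. A replicate block gave 5228 called genes against 5277 without it. It called 2 other members higher and 0 lower, with 5 pathway genes higher and 7 lower. AGO3 and AGO6, near 1 CPM, and AGO8, with 1 count in all, are limited by depth.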
